A study of Mus musculus with 10 samples.

Results

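The glutathione S-transferases examined here were 10 genes of the cytosolic family: Gsta2, Gsta3 and Gsta4 of the alpha class, Gstm1, Gstm2 and Gstm5 of the mu class, Gstp1 of the pi class, Gstt1 and Gstt2 of the theta class and Gsto1 of the omega class. They were chosen by name as a family whose levels are known to differ between inbred strains. The platform annotation gave them 15 of the 12488 probe sets on the array, each with a single gene symbol, and all 15 entered the tests. Total RNA of mammary tumours from adult female mice aged 90 days had been hybridised to 10 Affymetrix mg_u74av2 arrays. The series title places the tumours in MMTV-PyMT transgenic mice, which express the polyomavirus middle T oncoprotein in mammary epithelium from a promoter of mouse mammary tumour virus. The titles of 9 arrays name a strain: FVBn on 1 array, and ILn, LP, MOLF and NZB on 2 arrays each, lettered A and B. The title of 1 array names none.

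The strain label reads FVB/Nj on all 10 arrays, so that the groups rest on the titles alone, and the labels do not say whether a name stands for the strain itself or for a cross with FVB. Titles of the 9 arrays speak of a mix without saying of what. Nothing in the labels shows the A and B arrays of a strain to come from separate mice, so each p-value reflects no more than array-to-array spread, possibly technical in origin. The RNA came from whole tumours, in which fewer cells of a type and less RNA per cell cannot be told apart. All 10 genes of an epithelial marker list fixed for this work, among them Krt8, Krt18 and Epcam, lay above the floor on every array. On each array 70.0% of all probe sets other than controls did so, a share fixed in advance by the floor. That floor is the 30th percentile of the distribution to which all arrays were set.

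Markers of other tissues separated the strains, and 2 arrays stood apart. The summed intensity of 8 salivary gland markers reached 38190 on FVBn, 25770 (A) and 24000 (B) for ILn, and 4345 (A) and 5211 (B) for MOLF. It was 542 and 365.3 for LP A and LP B, and 466.1 and 455 for NZB A and NZB B, where Amy1 and Dnase1 lay at the floor on all 4. Skeletal muscle markers (10 genes) went the other way, with 9092 to 11340 on the LP and NZB arrays and 1409 to 3614 on the other 5 strain arrays. Not every salivary gland gene followed the sum, of which Bpifa2 was the brightest on MOLF A and MOLF B (11.57 and 11.83 in log2). Prol1 measured 6.89 and 5.65 there, against 6.92 to 7.71 on the LP and NZB arrays. Pip lay at the floor on MOLF A and at 5.29 on MOLF B, below LP A (6.16) and NZB A (5.83). Strain names and these traces of other tissues thus cannot be told apart. MOLF A and NZB B resembled each other (r = 0.927 over probe sets) more than they did any of the other 7 strain arrays (r from 0.812 to 0.868), whereas those 7 had r of 0.931 or more.

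Cytosolic glutathione S-transferases are dimeric enzymes that join reduced glutathione to electrophilic compounds, which are then exported from the cell. Substrates include products of lipid peroxidation, activated carcinogens and alkylating drugs. Many family members are induced through the transcription factor NRF2 (gene Nfe2l2), which binds antioxidant response elements. The omega class differs from the others in carrying an active site cysteine, with which it reduces dehydroascorbate and removes glutathione from proteins.

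The promoters of 5 members are shown, chosen for the traits named next. No link between these sequences and the measured levels was tested. Gsto1 had the smallest p-value of the family, Gstm1 and Gstm2 each had 1 of their 2 probe sets brightest on the array with no strain name, Gstm5 lies in the same mu class cluster of chromosome 3, and Gsta3 and Gstm5 were the members with a match to the antioxidant response element core. Each sequence runs from 250 bases before to 50 bases after the start site, 5' to 3' on the gene's strand, from the RefSeq promoter table of build GRCm38.p6. The regions are chr19:47854723-47855022 on the plus strand for Gsto1, chr3:108017924-108018223 on the minus strand for Gstm1, chr3:107986371-107986670 on the minus strand for Gstm2, chr3:107895604-107895903 on the plus strand for Gstm5 and chr1:21240335-21240634 on the plus strand for Gsta3. Capitals mark matches on either strand to TGACNNNGC (antioxidant response element core), GCGTG (xenobiotic response element core) or TATAAA (the TATA box sequence).
Gsto1: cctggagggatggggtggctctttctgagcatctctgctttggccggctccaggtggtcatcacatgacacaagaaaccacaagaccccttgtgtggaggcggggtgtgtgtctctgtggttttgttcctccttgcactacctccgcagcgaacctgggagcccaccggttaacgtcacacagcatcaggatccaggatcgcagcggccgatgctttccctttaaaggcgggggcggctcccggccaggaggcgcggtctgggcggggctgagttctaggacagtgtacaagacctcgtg
Gstm1: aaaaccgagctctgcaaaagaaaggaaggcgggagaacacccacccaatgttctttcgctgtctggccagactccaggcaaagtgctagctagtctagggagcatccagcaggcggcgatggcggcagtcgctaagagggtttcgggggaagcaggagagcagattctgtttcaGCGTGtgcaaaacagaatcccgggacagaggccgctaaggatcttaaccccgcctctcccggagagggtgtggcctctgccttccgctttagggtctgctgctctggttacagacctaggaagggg
Gstm2: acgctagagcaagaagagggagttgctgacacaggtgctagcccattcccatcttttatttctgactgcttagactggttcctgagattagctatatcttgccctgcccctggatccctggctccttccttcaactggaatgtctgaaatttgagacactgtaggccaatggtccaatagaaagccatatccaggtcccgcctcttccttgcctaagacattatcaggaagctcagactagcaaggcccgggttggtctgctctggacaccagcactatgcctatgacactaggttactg
Gstm5: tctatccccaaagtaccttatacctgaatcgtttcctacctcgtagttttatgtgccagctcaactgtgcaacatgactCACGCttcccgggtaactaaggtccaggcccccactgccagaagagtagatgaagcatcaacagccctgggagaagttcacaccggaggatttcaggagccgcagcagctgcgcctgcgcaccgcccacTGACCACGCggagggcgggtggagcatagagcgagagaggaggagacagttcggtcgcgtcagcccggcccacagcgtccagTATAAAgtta
Gsta3: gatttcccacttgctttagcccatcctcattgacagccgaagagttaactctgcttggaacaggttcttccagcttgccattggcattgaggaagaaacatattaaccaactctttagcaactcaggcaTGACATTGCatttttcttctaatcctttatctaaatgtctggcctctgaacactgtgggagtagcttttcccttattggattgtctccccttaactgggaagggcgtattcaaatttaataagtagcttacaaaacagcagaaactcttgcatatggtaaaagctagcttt
Of the 10 members, 8 had an entry in that table, and the other 2, Gsta4 and Gstt2, had none. The TGACNNNGC core matched in 2 of these 8 promoters and in 12.5% of all 27025 promoters of the table, GCGTG in 4 of 8 and 32.5%, and TATAAA in 2 of 8 and 14.2%. In Gsta3 the TGACNNNGC match begins at position -121 from the start site, and in Gstm5 at -42, where it overlaps a GCGTG match on the opposite strand at -38. The TATAAA matches begin at position 41, after the start site, in Gstm5 and at -246 on the opposite strand in Gsta2. The Gsto1 and Gstm2 windows hold none of the 3 sequences.

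No glutathione S-transferase probe set passed any of the 8 comparisons between strain names. Values are quantile normalized log2 intensities, and the floor, below which values were raised, was 4.75. Over the 9 strain arrays the median range of the 15 probe sets was 0.70 log2 units, against 1.09 for the 9899 probe sets tested. Leaving out MOLF A and NZB B, which resembled the other 7 arrays least, the 2 medians were 0.69 and 0.70. The range exceeded 1 log2 unit in 6 of the 15 probe sets (40%) and in 56.6% of all probe sets tested. Of the 15, 10 lay above the floor on all 9 arrays, as did 6836 of the 9899 tested, and the other 5 members reached the floor on at least 1.

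**Figure D1:**
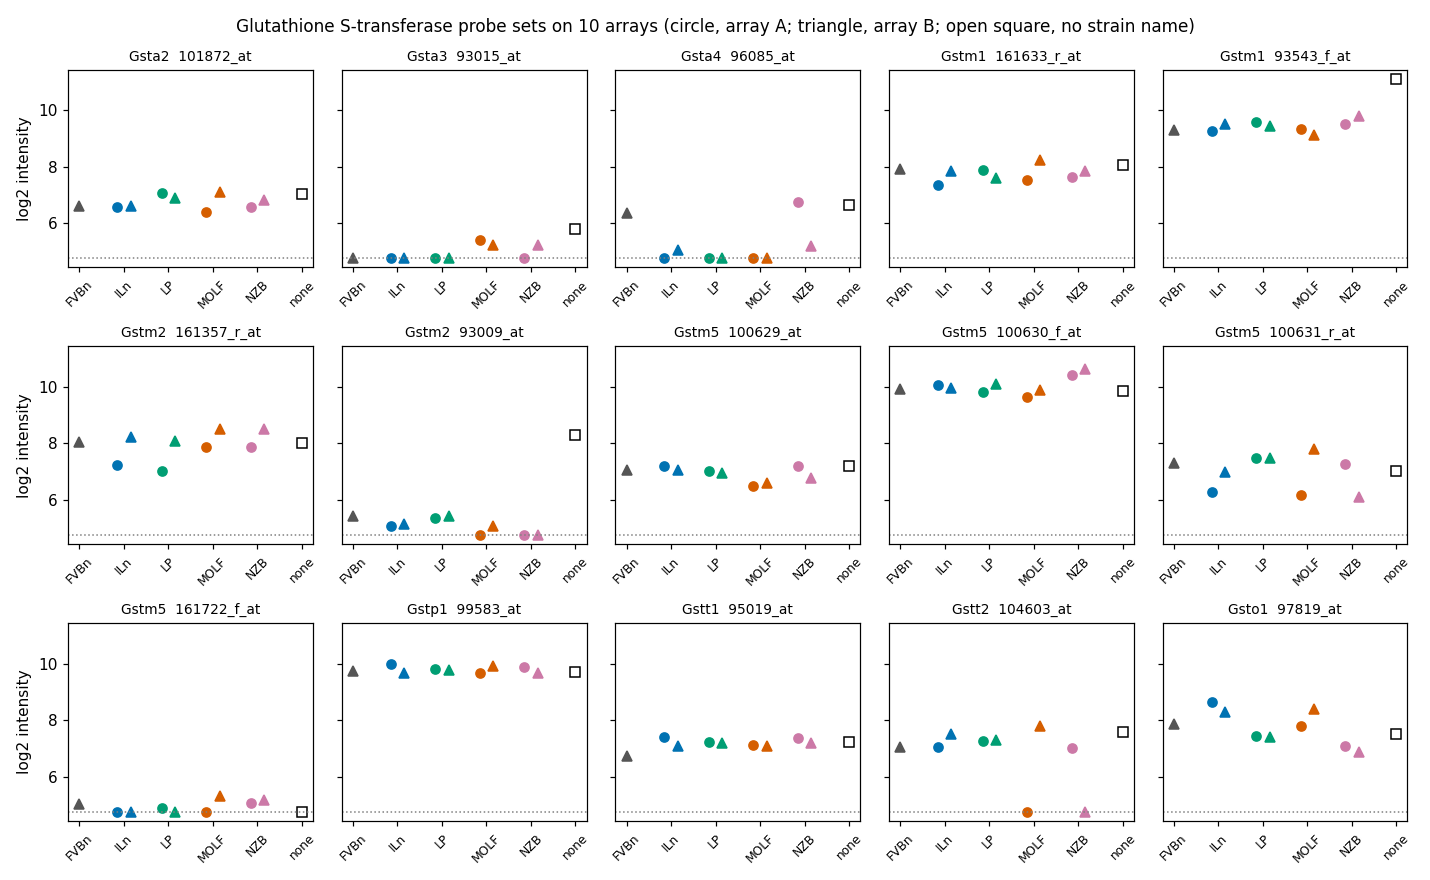
Quantile normalized log2 intensity (y axis) of the 15 glutathione S-transferase probe sets on each of the 10 arrays, by the strain name in the title (x axis; none, no strain name). Circles are A arrays, triangles B arrays, the open square the array with no strain name, and the dotted line the floor of 4.75; levels of different probe sets cannot be compared with each other. Gstp1 varies by 0.34 log2 units over the 9 strain arrays, whereas Gsto1 spans 6.86 to 8.64 and Gstt2 drops to the floor on MOLF A and NZB B.

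Gsto1, which reduces dehydroascorbate and deglutathionylates proteins, had the clearest order of strains in the family, without passing the test. It measured 8.64 on ILn A and 8.28 on ILn B. The MOLF arrays gave 7.81 (A) and 8.41 (B), and the FVBn array gave 7.86. The LP arrays gave 7.46 (A) and 7.39 (B), and the NZB arrays 7.07 (A) and 6.86 (B). Both ILn arrays and both MOLF arrays thus lay above all LP and NZB arrays, both NZB arrays were the lowest of all 9, and ILn and MOLF overlapped. Strain means ran from 8.46 ± 0.26 (ILn) through 8.11 ± 0.43 (MOLF) and 7.42 ± 0.05 (LP) to 6.97 ± 0.15 (NZB) (SD, n = 2 each).

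Between ILn and NZB, whose arrays share their title dates, the Gsto1 difference was 1.49 log2 units (SE 0.28, 95% interval 0.83 to 2.15), or 2.82-fold. It did not pass in limma's moderated test (adjusted p = 0.117). Within date 2 the difference was 1.78 (ILn A less NZB B), and within date 4 it was 1.21 (ILn B less NZB A), where dates are numbered in their order in the titles. NZB against the mean of ILn, LP and MOLF gave -1.03 (SE 0.23, limma adjusted p = 0.264), and ILn against the mean of LP, MOLF and NZB gave 0.96 (SE 0.23, limma adjusted p = 0.283). LP lay below MOLF by a difference of -0.68 (95% interval -1.35 to -0.02, limma adjusted p = 0.772), at -0.35 within date 3 and -1.02 within date 4. Without MOLF B it was -0.38. In the moderated F test over ILn, LP, MOLF and NZB the p-value was 0.00391 and the adjusted p 0.217, which ranks Gsto1 at 178 of 9899 probe sets.

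**Figure D2:**
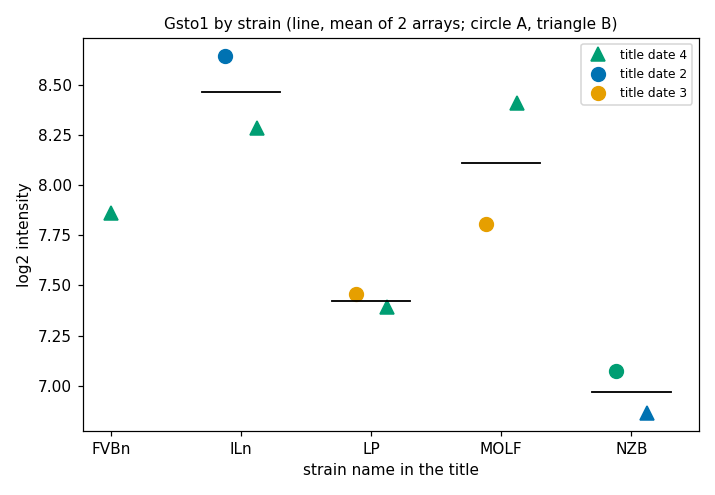
Quantile normalized log2 intensity of Gsto1 (y axis, which does not start at 0) on the 9 strain arrays, by strain name (x axis). Circles are A arrays, triangles B arrays, colours the title date and lines the mean of 2 arrays; both NZB arrays (7.07 and 6.86) lie below all others and both ILn arrays (8.64 and 8.28) above all but MOLF B.

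The summed salivary gland and muscle markers split the arrays as Gsto1 did, though not every gene of either list did so. In the muscle list, Mb on NZB B (6.36) lay below ILn A (6.82), and Mylpf on NZB B (7.62) below ILn B (7.66). On all 5 arrays of FVBn, ILn and MOLF, both Gsto1 and the summed salivary gland markers lay above their values on all 4 arrays of LP and NZB, and the summed muscle markers lay below. Within those groups the orders differed, since FVBn had the most salivary gland signal but less Gsto1 than ILn. Summed over 8 macrophage markers, the intensity came to 4226 and 4644 in ILn (A, then B), 3691 and 3823 in LP, 2936 and 3155 in MOLF, 3339 and 3113 in NZB, and 3713 in FVBn. It was highest in ILn, as Gsto1 was, but lowest on MOLF A, where Gsto1 lay above the LP and NZB arrays. Of these 8 markers only Adgre1 reached the floor, on ILn B, MOLF A, MOLF B and NZB B. The summed intensity of 8 fibroblast markers reached 5585 on ILn A and 5658 on ILn B, 4887 on FVBn and 3197 to 4086 on the other 6; in this list Mmp2 reached the floor, on FVBn and MOLF A. For actin, the 3' over 5' probe set ratio (log2), a measure of RNA integrity, lay between 0.22 and 0.28 for FVBn and ILn, at 0.60 and 0.78 for MOLF, and between 0.94 and 1.12 for LP and NZB. It was thus highest on the 4 arrays where Gsto1 was lowest. The same ratio for Gapdh did not follow that split, with 0.20 and 0.31 for MOLF, 0.37 and 0.26 for LP, 0.25 and 0.19 for NZB, and -0.41 to -0.21 for FVBn and ILn. The part of these measures in the Gsto1 values was not tested.

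By the root mean square difference of centred values over the 9 strain arrays, the genes most like Gsto1 were Atp2a3, a calcium pump of the endoplasmic reticulum (0.25 log2 units), Arfgap3, a regulator of Golgi transport (0.26), and a probe set of the MHC class I gene H2-Q1 (0.26). The SD of Gsto1 itself over these arrays was 0.58. Atp2a3 measured 9.23 and 9.34 on the ILn arrays and 8.47 and 8.12 on the NZB arrays, with LP at 8.65 on both arrays and MOLF at 9.20 and 9.34. These likenesses are descriptions over 9 arrays, which share their scaling and their RNA.

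The alpha class held the member with the most uneven pattern among dim probe sets, Gsta4, which conjugates hydroxynonenal from lipid peroxidation. It measured 6.75 on NZB A, 6.37 on FVBn, 5.21 on NZB B and 5.05 on ILn B. ILn A, LP A, LP B and MOLF A lay at the floor, and MOLF B was at 4.76. High values were therefore seen on FVBn and on 1 of the 2 NZB arrays, and the 2 NZB arrays differed by more than NZB B differed from the other strains. NZB was at least 2.25-fold above the mean of ILn, LP and MOLF (log2 difference 1.17, SE 0.38; a lower bound, since both LP arrays lay at the floor), but the limma adjusted p was 0.51. Without NZB A the difference was 0.40. For the 4 strains against the single FVBn array the difference was -1.27 (95% interval -2.44 to -0.10), which did not pass. The size of this difference is a lower bound too, since ILn A, both LP arrays and MOLF A lay at the floor. With the floor at the 20th percentile it was -1.66.

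Gsta3, which in the mouse detoxifies the epoxide of aflatoxin, lay at the floor on FVBn and on all ILn and LP arrays. It measured 5.41 and 5.24 on MOLF A and MOLF B, 5.24 on NZB B and the floor on NZB A. MOLF against the mean of ILn, LP and NZB differed by 0.49 (SE 0.19, limma adjusted p = 0.676). This is a lower bound set by the floor, and with the floor at the 20th percentile it was 0.67. Gsta3 passed the filter only through both MOLF arrays and NZB B, so this test of MOLF is not independent of the filter. Without MOLF A and NZB B the difference was 0.49 again with an adjusted p of 0.0376, but then every array other than MOLF B lay at the floor, so that the spread within strains was 0. Gsta2 was measured on all arrays, from 6.41 on MOLF A to 7.09 on MOLF B. The pair of MOLF arrays thus spanned the values of all other strains for Gsta2 (limma F test, adjusted p = 0.907).

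Among the mu class, which conjugates many aromatic electrophiles, no probe set passed, and the probe sets of a gene were not all highest in the same strain. Gstm5 had 4 probe sets, of which 100630_f_at was highest in NZB. That probe set measured 10.41 on NZB A and 10.64 on NZB B, above all 7 other strain arrays, which lay between 9.63 on MOLF A and 10.09 on LP B. NZB exceeded the mean of ILn, LP and MOLF by 0.61 (SE 0.14, 95% interval 0.29 to 0.94), or 1.53-fold (limma adjusted p = 0.27). With median centring in place of quantile normalization the difference was 0.34 (limma adjusted p = 0.814). The other Gstm5 probe sets gave 0.09 (100629_at), -0.34 (100631_r_at) and 0.27 (161722_f_at) for the same comparison, with no p under 0.05. MOLF was lowest on both 100629_at and 100630_f_at. On 100629_at both MOLF arrays (6.49 and 6.59) lay below the 7 others, at a difference of -0.49 from ILn, LP and NZB (limma adjusted p = 0.852). On 100630_f_at, where MOLF B (9.89) lay above LP A (9.83), the difference was -0.41 (limma adjusted p = 0.581), and without MOLF A it was -0.28. The suffix _f marks probe sets whose probes match several members of a family, and _r those for which too few unique probes could be designed. Of the 15 probe sets 3 carry _f and 3 carry _r, all in the mu class, so that the signal of these probe sets cannot be assigned to a single mu gene.

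Gstm1 measured 9.10 to 9.78 on its brighter probe set (93543_f_at) and 7.36 to 8.23 on the other (161633_r_at). On 93543_f_at NZB B was the highest and MOLF B the lowest, and on 161633_r_at MOLF B was the highest and ILn A the lowest. The largest difference of a strain from the others was -0.29 for MOLF on 93543_f_at (SE 0.14, limma adjusted p = 0.844). Gstm2 was dim on 93009_at, at 5.36 and 5.44 on LP A and LP B, 5.44 on FVBn, 5.09 and 5.14 on ILn A and ILn B, 5.09 on MOLF B and 4.76 on NZB A, and at the floor on MOLF A and NZB B. LP lay above the mean of ILn, MOLF and NZB by 0.47 (SE 0.18, limma adjusted p = 0.789), and both LP arrays lay above the other 6 arrays of that comparison. Its other probe set, 161357_r_at, differed between the arrays of a strain by more than between strain means, with 7.02 on LP A and 8.09 on LP B, and LP differed from the others by -0.49 there.

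Gstp1, the single pi class gene on the array and an inhibitor of the stress kinase JNK, had the smallest range of the family. It measured 9.74 on FVBn, 9.997 and 9.68 on ILn A and ILn B, 9.80 and 9.79 on LP A and LP B, 9.67 and 9.90 on MOLF A and MOLF B, and 9.88 and 9.65 on NZB A and NZB B. All strains overlapped, and the range of 0.34 log2 units was equalled or undercut by 2.30% of the probe sets tested. For ILn less NZB the 95% interval was -0.33 to 0.48, and for LP less MOLF it was -0.40 to 0.41.

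The theta class, which acts on halogenated and sulphate substrates, held a flat and an uneven member. Gstt1 measured 7.08 to 7.41 on the 8 arrays of the replicated strains and 6.73 on FVBn. The 4 strains exceeded FVBn by 0.48 (95% interval -0.22 to 1.18, limma adjusted p = 0.999). Gstt2 measured 7.01 to 7.79 on 7 arrays and lay at the floor on MOLF A and NZB B, where the deposited intensities were 33.0 and 26.3. The partner arrays MOLF B and NZB A stood at 7.79 and 7.01, so that the difference lay within strains and not between them (limma F test, adjusted p = 0.829). These are the 2 arrays that stood apart in their correlations. Of the 9899 probe sets, 263 (2.66%) lay at the floor on exactly these 2 arrays, 13 of them by more than 2 log2 units under the lowest of the other 7, and Gstt2 is among the 13. MOLF A and NZB B bear different title dates (3 and 2), and the part of array quality in the Gstt2 values was not tested.

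In limma 0 of the 15 probe sets passed the F test at an adjusted p of 0.05, which 0.748% of all probe sets passed. At an unadjusted p under 0.05 there were 2 of 15 (13.3%), Gsto1 and Gstm5, against 7.9% of all probe sets. For ILn against the other 3 strains the count was 0 (background 0.404%), with 1 unadjusted against 7.11% of all. For LP it was 0 (0.313%), with 1 unadjusted against 5.69%. For MOLF it was 0 (0.414%), with 2 unadjusted against 6.42%, and for NZB 0 (0.101%), with 3 unadjusted (20%) against 8.4%. For the 4 strains against FVBn it was 0 (0.313%), with 1 unadjusted against 3.41%. For ILn against NZB it was 0 (0.343%), with 2 unadjusted against 9.22%, and for LP against MOLF 0 (0.444%), with 2 unadjusted against 6.27%. Each unadjusted count was thus 3 or fewer of 15, and the adjusted counts of 0 stood against backgrounds of 0.101% to 0.748%. The number of arrays limits what could be seen: the median half-width of the 95% interval was 0.54 log2 units for a strain against the other 3 and 0.66 for a pair of strains.

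The 2 pairs with shared title dates allowed each difference to be seen on 2 dates. For ILn less NZB, 7 probe sets had the same sign on both dates, 7 had opposite signs and 1 was 0 on a date. For LP less MOLF the counts were 8, 6 and 1. Gsto1, Gstm1 (93543_f_at), Gstm2 (93009_at) and Gstm5 (100630_f_at) kept their sign on both dates in both pairs. The share of all tested probe sets that did so was not computed, so these counts cannot be read as particular to the family. Date 2 for ILn less NZB rests on NZB B, and date 3 for LP less MOLF rests on MOLF A. Both are arrays that stood apart in their correlations. For 100630_f_at ILn less NZB was -0.57 on date 2 and -0.45 on date 4. For 93009_at LP less MOLF was 0.61 on date 3 and 0.36 on date 4.

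**Figure D3:**
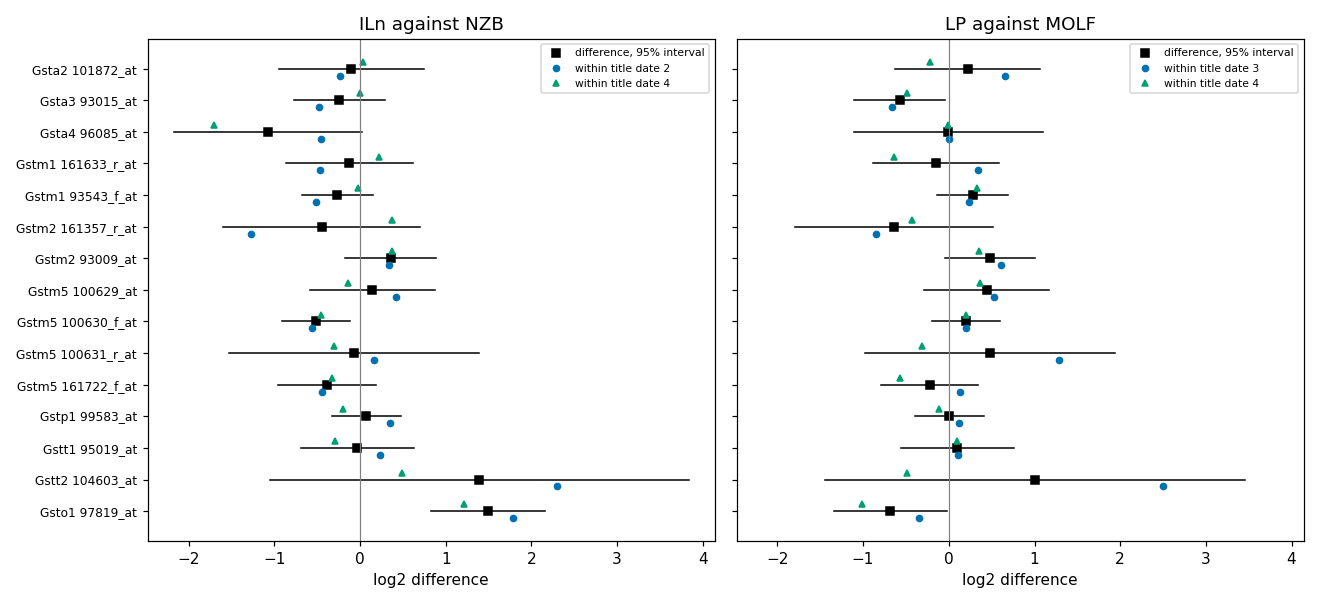
Log2 differences (x axis) of the 15 probe sets (y axis) for ILn against NZB and for LP against MOLF. Black squares with lines are the limma difference and its unadjusted 95% interval, and coloured points the difference within each shared title date; Gsto1 lies at 1.49 for ILn against NZB, with 1.78 and 1.21 on the 2 dates, and Gstt2 has the widest interval.

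A list of 51 further genes of glutathione metabolism had no gene past the test either. It was drawn up by pathway membership and held other transferases, the enzymes of glutathione synthesis and recycling, peroxidases, the NRF2 pathway and export pumps. Of the 51, 39 had a probe set and 35 were tested, and in limma 0 passed in each of the 8 comparisons. At an unadjusted p under 0.05 there were 4 of 35 in the F test (11.4%, against 7.9% of all) and between 1 and 8 in the 7 others, with 8 (22.9%) for ILn against NZB, where 9.22% of all did. The list's median difference for ILn against NZB was 0.03, and that over all probe sets 0.

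The genes of that list named next were chosen after their values were seen, as those with the smallest p-values. Mgst1, a microsomal transferase of the endoplasmic reticulum and outer mitochondrial membrane, measured 8.01 and 7.83 on the ILn arrays and 8.26 on FVBn. It measured 9.18 and 8.92 on LP, 9.42 and 9.52 on NZB, and 11.44 and 9.69 on MOLF. ILn thus lay below the other 3 strains without overlap, by a difference of -1.78 (SE 0.40, limma adjusted p = 0.238). Glo1, which clears methylglyoxal with glutathione, was lowest in NZB on its brighter probe set, at 8.83 and 8.63 against 9.13 or more on the arrays of ILn, LP and MOLF (difference -0.86, SE 0.18, limma adjusted p = 0.245). Gpx3, the secreted glutathione peroxidase, was highest in ILn, at 9.18 and 9.59 against 8.50 to 9.08 in LP, MOLF and NZB (difference 0.70, SE 0.17, limma adjusted p = 0.28). Nqo1, a quinone reductase induced through NRF2, was highest in NZB on its _r_at probe set, at 8.10 and 7.94 against 6.64 to 7.37 on the arrays of ILn, LP and MOLF (difference 1.02, SE 0.27, limma adjusted p = 0.374). On its _f_at probe set NZB overlapped MOLF, with 7.20 and 8.08 on NZB A and NZB B and 7.29 on MOLF A. Nfe2l2 itself measured 7.50 to 8.43 on the 9 strain arrays.

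The array with no strain name entered no comparison, and its values were set to the same distribution as the 9 others. On it 2 mu class probe sets, 1 of Gstm1 and 1 of Gstm2, were brighter by over 1 log2 unit than on any strain array. Gstm1 (93543_f_at) stood at 11.11, against 9.10 to 9.78 on the 9 strain arrays. Gstm2 (93009_at) stood at 8.29, against 4.75 to 5.44. The second probe sets of both genes lay within the range of the strain arrays, at 8.06 for Gstm1 and 8.02 for Gstm2. Of the 15 probe sets 2 (13.3%) were over 1 log2 unit above the highest strain array, as were 371 of the 9899 tested (3.75%). Gsta3 stood at 5.78, above its highest strain array (5.41), Gstm5 (100629_at) at 7.20 barely exceeded its highest (7.19), and the other probe sets lay within the range of the strain arrays.

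Summed markers of fat, muscle, vessels, fibroblasts and erythroid cells were also high on that array, though not every gene followed its sum. The summed intensity of 6 adipocyte markers was 17390, against 935.5 to 1424 on the strain arrays, and none of the 8 adipocyte genes on the array was at the floor there, while Pparg and Cidec lay at the floor on all 9 others. Skeletal muscle markers summed to 32950 against 1409 to 11340, and endothelial markers to 1213 against 220.9 to 412.7. Fibroblast markers summed to 10820 against 3197 to 5658, and erythroid markers to 9166 against 620.2 to 2674. Among the exceptions, Lep (9.42) lay below NZB B (9.52), and Kdr (7.03) below MOLF A (7.94) and NZB B (7.87). Col1a2, Fbln2, Mmp2 and Slc4a1 also lay within the range of the strain arrays. The 10 epithelial markers summed to 4367 against 7821 to 10410, but Krt19 (9.60), Cdh1 (7.93) and Erbb3 (9.29) lay within the range of the strain arrays. That array alone bears title date 1, so title date and its other differences from the strain arrays cannot be told apart. The part of tissue make-up in the Gstm1 and Gstm2 values was not tested.

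**Figure D4:**
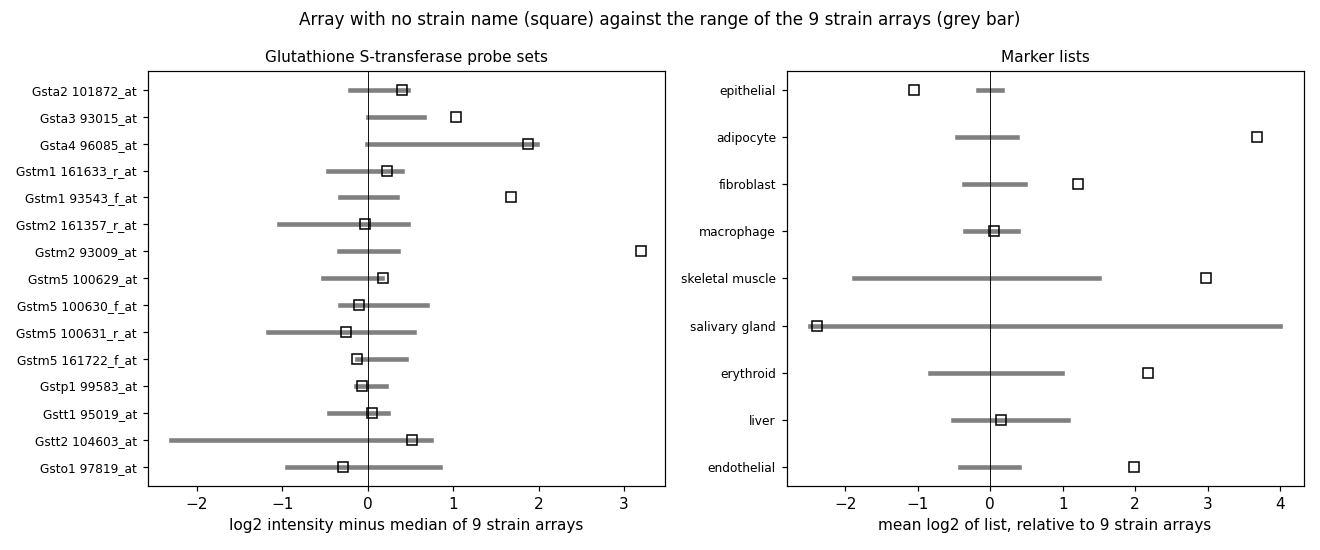
The array with no strain name (squares) against the range of the 9 strain arrays (grey bars): left, log2 intensity of each glutathione S-transferase probe set less the median of the 9 strain arrays; right, the mean log2 level of each marker list relative to the 9 strain arrays. Gstm1 93543_f_at lies 1.67 and Gstm2 93009_at 3.20 above the median, the adipocyte list 3.68 above and the epithelial list 1.05 below the strain arrays (-1.05).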

How the data were processed

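Each array came with 1 deposited intensity (linear) per probe set. No source used here names the method that summarised the probes or records a scaling step. Trimmed by 2% at each end, mean intensity equalled 500.2 on ILn A and 150.1 on the others. With 66 control probe sets left out, limma 3.58.1 (R 4.3.3) brought the log2 values of the 9 strain arrays to 1 distribution by quantiles, and the 30th percentile (27.0) served as a floor for lower values. Probe sets above that floor on at least 2 of 9 arrays were tested. Of all probe sets 10855 had 1 symbol, 396 several and 1237 none; symbols were updated through Entrez identifiers.

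A single limma model (lmFit, eBayes with an intensity trend, 4 residual degrees of freedom) fitted 5 strain means, with p-values adjusted by Benjamini-Hochberg over all 9899 probe sets and a threshold of 0.05. All groups shared 1 spread, also assumed for FVBn with its lone array. The script was tested on simulated data. The members and lists were chosen with earlier results of these data known. The text describes every member probe set, the genes most like the member with the smallest F test p, and list genes past a test, of which there were none. The list genes named instead, and those of the array with no strain name, were chosen after their values were seen. The alternatives were median centring, other filters and floors, the title date or array letter as a block, and leaving out arrays.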

Additional observations from a re-analysis of the deposited data

Results flagged for a closer look

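A pair of mu class values stood out in data that no comparison uses, the array whose title names no strain. Gstm1 (93543_f_at) measured 11.11 there and Gstm2 (93009_at) 8.29, each more than 1 log2 unit above the highest of the 9 strain arrays (9.78 and 5.44). The second probe set of each gene did not stand out. No group has 4 or more arrays, so outlying arrays within a group were not tested.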

How the results depend on the processing

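The count of glutathione S-transferase probe sets past the test was 0 in all 8 comparisons and stayed at 0 in 117 of the 120 combinations of a comparison with 1 of 15 alternatives. The 3 exceptions arose without MOLF A and NZB B together: the F test, MOLF against ILn, LP and NZB, and LP against MOLF each called 1 probe set, Gsta3 in each case (adjusted p = 0.0456, 0.0376 and 0.0411), and the Gsta3 difference for MOLF was 0.49. That alternative leaves MOLF with 1 array and all other arrays at the floor for Gsta3, hence no spread within strains. Leaving out each array of a replicated strain in turn gave counts of 0 to 0. Of 12 differences and F tests followed for Gsto1, Gstm5, Gsta4, Gstm2 and Gsta3, none changed sign under any alternative that could be run. The Gsto1 difference of ILn from NZB ranged from 1.31 to 1.68, with adjusted p from 0.0917 (stricter filter) to 0.799 (without ILn A). With the title date as a block it was 1.49 (limma adjusted p = 0.303). The block could not change this difference, since both strains have 1 array on each of the same dates. The Gstm5 (100630_f_at) difference of NZB ranged from 0.34 (median centring) to 0.73 (without NZB A). The Gsta4 difference of NZB ranged from 0.40 (without NZB A) to 1.94 (without NZB B). Gsta3 has no value under the stricter filter, which it does not pass. Array letters did not pair the samples: the A less B differences of 2 strains correlated at -0.71 to 0.13. With the letter as a replicate block the count was 0 in all 8 comparisons and Gsto1 for ILn against NZB had an adjusted p of 0.271. Array number limits the precision, and signal near the floor limits Gsta3, Gsta4, Gstm2 (93009_at) and Gstm5 (161722_f_at).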

Other observations

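On the array with no strain name, other genes of glutathione metabolism also lay outside the 9 strain arrays. Gpx3 stood at 10.90 against 8.50 to 9.59, Gstz1, which takes part in tyrosine breakdown, at 10.58 against 8.03 to 8.88, and Mgst3 (the brighter probe set) at 9.11 against 7.71 to 8.43. The mu class gene Gstm3 stood at 9.11 against 5.12 to 8.15 on its _f_at probe set, but within the strain arrays on its _r_at probe set (8.11). Gpx4 stood at 9.43 against 8.33 to 8.83. Lower than on any strain array were Glrx (7.47 against 7.99 to 8.87) and Txn1 (10.30 against 10.83 to 11.53) on that array. Both probe sets of Nqo1 lay at the floor there, against 5.91 to 8.08 (_f_at) and 6.64 to 8.10 (_r_at) on the strain arrays. These genes were named after their values were seen, and no test was made on a single array, whose title date no strain array shares.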
